A study of Mus musculus with 6 samples.

Results

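The genes described here encode the folding machinery of the endoplasmic reticulum (ER) and Xbp1, a transcription factor that controls it. They were chosen by name as 10 rows of a table of 54532 genes: Hspa5, Hsp90b1, Pdia3, Pdia4, Pdia6, Calr, Canx, Dnajb9, Herpud1 and Xbp1. All 10 were counted highly enough to be tested, among 13352 genes that passed the filter on low counts. The table holds read counts from AE9a leukemia cells of 2 bone marrow regions of C57BL/6 mice, with 3 libraries per region. Central bone marrow (CBM) cells were flushed from the bones, and endosteal bone marrow (EBM) cells were released afterwards from the same bones by collagenase. All groups share the AE9a transgene, a truncated AML1-ETO fusion that a retrovirus had carried into c-Kit+ blood progenitors, together with GFP. The cells came from mice of the third transplant generation of this model, and the study's drawing of the design shows that GFP+ cells were sorted. No treatment other than the collagenase distinguished the groups, so the marrow region and the digestion cannot be told apart. Neither the age of these mice at collection nor the number of mice behind each library is given in the sources used here, so p-values measure only the spread between these libraries.

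Proteins that enter the ER are folded by chaperones, given disulfide bonds by isomerases and inspected through their sugar chains. When unfolded proteins build up, the sensors IRE1, PERK and ATF6 start the unfolded protein response (UPR). IRE1 splices the Xbp1 transcript into its active form, and XBP1 and cleaved ATF6 then switch on chaperone genes through short promoter elements. Chaperones of this set are abundant in cells that make much membrane and secreted protein, plasma cells being the best known.

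The promoter elements are shown first because they are the sequences through which the UPR is known to act on chaperone genes. The ER stress response element (ERSE) was searched for as CCAAT, 9 bases of any kind and CCACG, and its compact form ERSE-II as ATTGG, 1 base of any kind and CCACG, on both strands, in windows from 250 bases before to 50 bases after each RefSeq start site on GRCm38.p6. All 10 genes had a window. A full ERSE was found in 5 of them, and in 0.119% of the 32851 windows of this length in the RefSeq table. The ERSE-II was found in Herpud1 alone among the 10 genes, and in 0.0365% of all windows. Both elements were searched for because they are known from genes of this kind, so these shares are a description and no independent test. The core of the UPR element, TGACGTGG, was in 0 of the 10 and in 0.676% of all windows. A bare CCAAT box, which both kinds of ERSE contain on the forward or reverse strand, was in 9 of the 10 but also in 37.4% of all windows. The matched sites, with flanking bases in lower case and the match in capitals, read 5′ to 3′ along the gene as follows.
Hspa5, chr2:34772025-34772043, plus strand: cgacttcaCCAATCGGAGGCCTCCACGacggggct
Hsp90b1, chr10:86705638-86705656, minus strand: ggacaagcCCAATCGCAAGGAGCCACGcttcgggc
Hsp90b1, chr10:86705533-86705551, minus strand: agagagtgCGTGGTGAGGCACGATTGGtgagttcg
Pdia6, chr12:17266491-17266509, plus strand: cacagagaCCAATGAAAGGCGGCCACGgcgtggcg
Calr, chr8:84847075-84847093, minus strand: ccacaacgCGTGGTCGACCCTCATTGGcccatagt
Canx, chr11:50325800-50325818, minus strand: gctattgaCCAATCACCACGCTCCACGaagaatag
Herpud1, chr8:94386377-94386387, plus strand: gggcgctgATTGGGCCACGttggacac

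The coordinates cover the capitals. The second Hsp90b1 site and the Calr site stand in reverse, so the capitals begin with the reverse complement of CCACG. The Hspa5 site lay 65 to 47 bases before the RefSeq start and the Herpud1 site 52 to 42 bases before it, the closest of all to their start sites. Pdia3, Pdia4, Dnajb9 and Xbp1 had no exact match, which says only that these letters are not in their windows. For the 2 genes with the largest difference between the regions, and for Canx, which has an ERSE but the smallest difference, the 250 bases before the start are given with the same capitals.
Hspa5, chr2, plus strand: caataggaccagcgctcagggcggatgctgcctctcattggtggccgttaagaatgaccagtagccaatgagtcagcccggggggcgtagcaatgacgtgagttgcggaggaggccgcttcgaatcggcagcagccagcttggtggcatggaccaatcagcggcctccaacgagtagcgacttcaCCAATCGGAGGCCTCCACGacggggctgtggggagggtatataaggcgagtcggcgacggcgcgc
Herpud1, chr8, plus strand: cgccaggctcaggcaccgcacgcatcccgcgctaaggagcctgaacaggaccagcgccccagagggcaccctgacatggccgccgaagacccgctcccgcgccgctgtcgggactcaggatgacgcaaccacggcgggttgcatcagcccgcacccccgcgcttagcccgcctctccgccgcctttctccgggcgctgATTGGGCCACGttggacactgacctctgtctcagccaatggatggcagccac
Canx, chr11, minus strand: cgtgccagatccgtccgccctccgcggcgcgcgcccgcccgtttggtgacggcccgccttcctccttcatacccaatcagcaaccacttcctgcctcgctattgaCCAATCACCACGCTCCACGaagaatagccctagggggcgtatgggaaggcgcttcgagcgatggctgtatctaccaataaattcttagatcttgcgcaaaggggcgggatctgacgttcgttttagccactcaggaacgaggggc

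**Figure D1:**
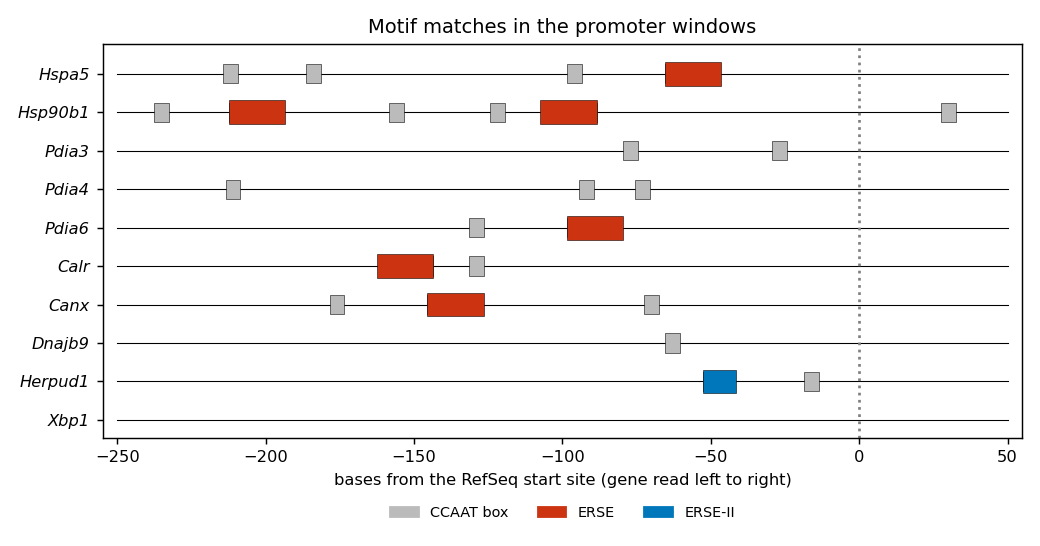
Matches to the ERSE (red), the ERSE-II (blue) and a bare CCAAT box (grey) in the promoter windows of the 10 genes, drawn in bases from the RefSeq start site along the gene. An ERSE stands in 5 windows, the ERSE-II in that of Herpud1, and the Xbp1 window holds none of the 3.

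Library totals were between 17078883 and 19462964 counts in CBM and between 16436526 and 18413131 in EBM. A floor of 3 counts was at most 0.193 CPM (counts over the TMM-scaled library total), for counting error only. The first principal component of all genes (53.0% of the variance) did not follow the regions, with its lowest scores in CBM replicate 2 (-42.9) and EBM replicate 3 (-46.0). The second (19.7%) did, with scores of 3.58 to 31.5 in CBM and -22.2 to -14.8 in EBM. Among identity genes of the leukemia, Kit lay between 195.5 and 238.3 CPM and Myb between 267.5 and 351.3 CPM in every library. Others of that list were uneven within both regions, with Cd34 between 1.16 and 16.4 CPM, Fcgr3 between 11.6 and 118.2 CPM, Mpo between 1.65 and 35.7 CPM and Runx1 between 329.8 and 721.4 CPM. Ptprc, which encodes the pan-leukocyte antigen CD45, was at most 3.57 CPM, and Cebpa, a granulocytic factor, at most 0.683 CPM. The 7 erythroid genes summed to between 2319 and 7657 CPM in CBM and between 2897 and 5886 CPM in EBM. Transcripts of Kit were thus present in every library, those of CD45 nearly absent and erythroid ones abundant. In bulk libraries, fewer cells of a type and less RNA per cell cannot be told apart.

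Together the 10 genes took between 0.383% and 0.445% of the counts of a CBM library and between 0.417% and 0.837% of those of an EBM library. Per kilobase of the deposited gene length, the order of their mean levels over the 6 libraries was Hspa5, Calr, Herpud1, Pdia3, Canx, Hsp90b1, Pdia6, Xbp1, Pdia4 and Dnajb9. Hspa5 stood highest with a mean of 530.1 CPM per kilobase (range 331.3 to 1081), followed by Calr with 391.1 (range 300.0 to 585.7). Their ranges overlapped, as did those of Herpud1 and Pdia3, of Canx and Hsp90b1, of Hsp90b1 and Pdia6, of Pdia6 and Xbp1, and of Xbp1 and Pdia4. The ranges of Calr and Herpud1, of Pdia3 and Canx, and of Pdia4 and Dnajb9 did not. At the lower end, Xbp1 had a mean of 43.8 CPM per kilobase and Dnajb9 15.1 CPM per kilobase. By CPM alone, Hspa5 was above 99.9% of the genes tested, and Dnajb9 above 57.6%.

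In what follows, unadjusted p is the value of edgeR's quasi-likelihood F-test and q the same value after Benjamini-Hochberg adjustment for all genes tested. All 10 genes had a higher fitted level in EBM than in CBM, against 50.4% of the genes tested. None had an edgeR q under 0.05, nor had any of the 13352 genes (0%), of which 1056 had an unadjusted p under 0.05. That value was reached by 3 of the 10 (Herpud1, Hspa5 and Hsp90b1), against 7.91% of all genes, and all 3 were higher in EBM, against 4.01% of all genes higher and 3.9% lower. Only Herpud1 of the 10 had every EBM library above every CBM library, against 7.47% of all genes, and 0 of the 10 had every EBM library beneath, against 7.65%. The median log2 fold change (EBM against CBM) was 0.36 for the 10 genes and 0.0017 for all genes tested. Without EBM replicate 3 the median of the 10 was 0.21, and without CBM replicate 2 also 0.21. The 10 genes share 6 libraries and are not replicates of each other. They were chosen with earlier results of these data known, so the shares above are a description and no independent test. DESeq2 called 175 of 24771 genes without the filter on low counts and 201 of 13344 genes with it, and in both cases 1 of the 10, Herpud1.

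**Figure D2:**
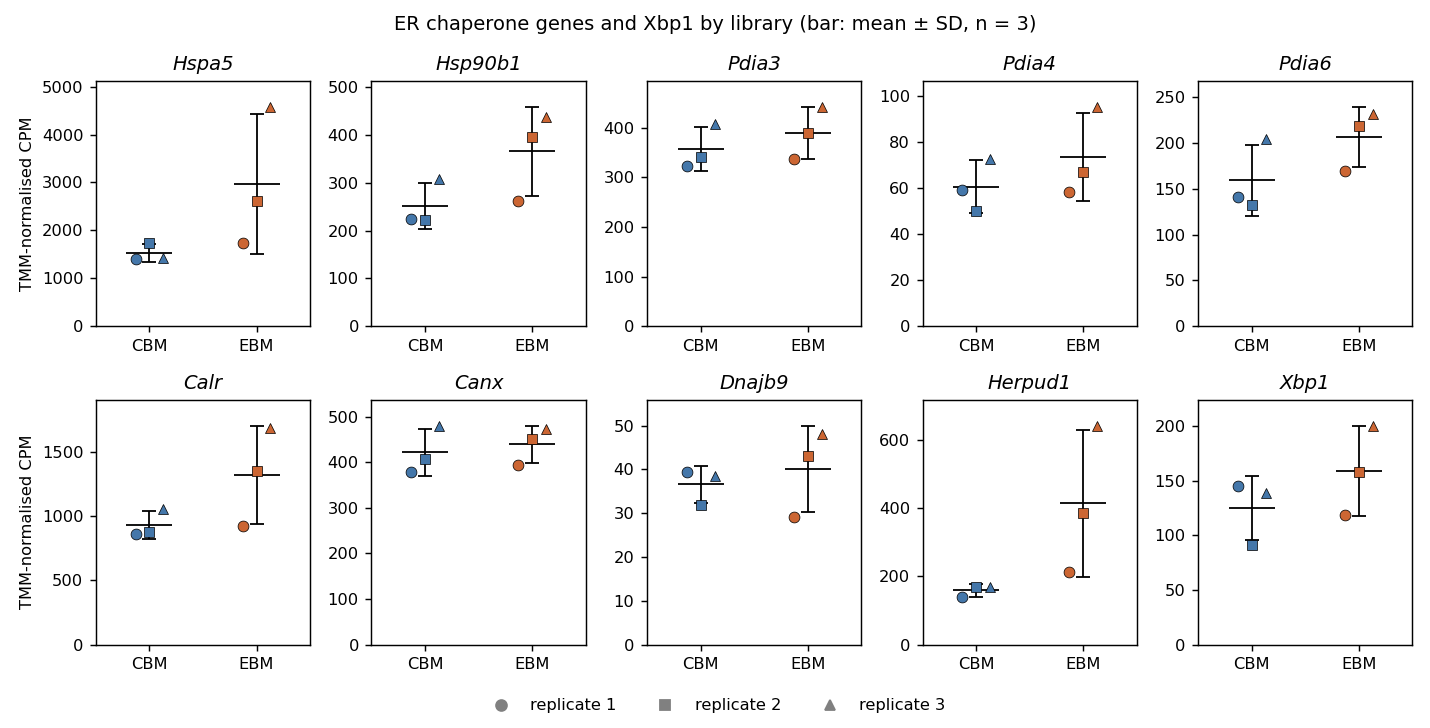
TMM-normalised CPM of each gene (vertical axis from 0) in the 3 CBM (blue) and 3 EBM (orange) libraries, with marker shape for the replicate number and a bar for the mean ± SD. EBM replicate 3 is the highest library for 9 of the 10 genes, Canx being the exception, and only Herpud1 shows no overlap between the regions.

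Herpud1 (ENSMUSG00000031770, chr8:94386438-94395377, plus strand) showed the largest difference of the 10. It encodes a short-lived protein of the ER membrane that helps to assemble the complex which returns misfolded proteins to the cytosol for degradation. Its normalised level was 138.3, 167.9 and 170.1 CPM in CBM replicates 1 to 3 and 214.3, 386.1 and 642.6 CPM in EBM replicates 1 to 3. The CBM libraries lay close together, and the EBM libraries were spread widely above them. The means were 158.8 ± 17.8 CPM (CBM) and 414.3 ± 215.6 CPM (EBM; mean ± SD, n = 3 each), a 2.61-fold difference. The fitted log2 fold change was 1.38 ± 0.37 (standard error; edgeR unadjusted p = 0.00740, q = 0.390). It ranked 253 by p and 95 by log2 fold change among the 13352 genes, so 0.712% had one at least as large. An exact two-sided permutation test on log2 CPM gave p = 0.1, the smallest that 3 libraries against 3 allow. In DESeq2 its log2 fold change was 1.39 (adjusted p = 0.00706), while over all alternatives the adjusted p ran from 0.00706 to 0.985. Without EBM replicate 3 the log2 fold change was 0.91 (edgeR unadjusted p = 0.0115, q = 0.409). An antisense gene, Gm15890, overlaps Herpud1 and held 0.779% of the number of its counts.

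Hspa5 (ENSMUSG00000026864, chr2:34771970-34777547, plus strand) encodes BiP, the HSP70 of the ER lumen, which binds nascent chains and keeps the UPR sensors silent. Its level was 1401, 1733 and 1414 CPM in CBM replicates 1 to 3 and 1730, 2603 and 4571 CPM in EBM replicates 1 to 3. EBM replicate 1 was level with CBM replicate 2, so the regions overlapped by a small margin, and EBM replicate 3 stood far above the rest. Its counts there, 71214, were 0.433% of the whole library. The means were 1516 ± 187.8 CPM (CBM) and 2968 ± 1456 CPM (EBM; mean ± SD, n = 3 each), a 1.96-fold difference. The log2 fold change was 0.97 ± 0.33 (standard error; edgeR unadjusted p = 0.0239, q = 0.545), and the exact two-sided permutation test gave p = 0.2. Without EBM replicate 3 the log2 fold change was 0.51 (edgeR unadjusted p = 0.0463, q = 0.590). The edgeR unadjusted p passed 0.05 without CBM replicate 1 (0.0581) and without CBM replicate 3 (0.0697). Of all genes tested, 1.67% had a log2 fold change at least as large as that of Hspa5.

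Hsp90b1 (ENSMUSG00000020048, chr10:86690209-86705509, minus strand) encodes GRP94, the HSP90 of the ER, which folds integrins and Toll-like receptors. Its level was 223.9, 222.9 and 307.4 CPM in CBM replicates 1 to 3 and 261.7, 396.8 and 438.4 CPM in EBM replicates 1 to 3. EBM replicate 1 lay below CBM replicate 3, and the other 2 EBM libraries lay above every CBM library. The log2 fold change was 0.54 ± 0.22 (standard error; edgeR unadjusted p = 0.0467, q = 0.622) and the exact permutation p was 0.2. Leaving out any library other than CBM replicate 3 or EBM replicate 1 took its edgeR p past 0.05, to between 0.118 and 0.152. A pseudogene on the opposite strand, 1810014B01Rik, overlaps Hsp90b1 and held 3.45% of the number of its counts, and Gm15344 on the same strand held 2.72%.

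Calr and Canx are the lectin chaperones, which hold glycoproteins by a trimmed glucose on their sugar chains. Calreticulin is soluble and calnexin is its counterpart in the membrane. Calr (ENSMUSG00000003814, chr8:84841850-84846934, minus strand) was at 864.0, 876.0 and 1054 CPM in CBM replicates 1 to 3 and at 922.5, 1355 and 1687 CPM in EBM replicates 1 to 3. As for Hsp90b1, EBM replicate 1 fell within the CBM range and the other 2 EBM libraries lay above it. Its log2 fold change was 0.50 ± 0.22 (standard error; edgeR unadjusted p = 0.0567, q = 0.644) and the exact permutation p was 0.2. Without EBM replicate 3 the log2 fold change of Calr was 0.28. Canx (ENSMUSG00000020368, chr11:50293961-50325673, minus strand) was at 378.4, 407.7 and 479.7 CPM in CBM replicates 1 to 3 and at 394.4, 450.5 and 473.4 CPM in EBM replicates 1 to 3. Its highest library was a CBM library, and its whole range over the 6 libraries was 1.27-fold, the narrowest of the 10 genes. The log2 fold change of Canx was 0.059 ± 0.13 (standard error; edgeR q = 0.980). It turned to -0.015 when libraries were scaled by their totals alone.

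The protein disulfide isomerases form and reshuffle disulfide bonds in the ER. Pdia3 is the partner of calnexin and calreticulin, Pdia4 is a large isomerase of the same fold, and Pdia6 also acts on the IRE1 and PERK sensors. Pdia6 (ENSMUSG00000020571, chr12:17266545-17284770, plus strand) was at 141.0, 132.4 and 204.1 CPM in CBM replicates 1 to 3 and at 169.6, 218.6 and 231.3 CPM in EBM replicates 1 to 3. CBM replicate 3 lay above EBM replicate 1, and the log2 fold change was 0.38 ± 0.20 (standard error; edgeR q = 0.713). Pdia4 (ENSMUSG00000025823, chr6:47796141-47813430, minus strand) was between 50.3 and 73.0 CPM in CBM and between 58.4 and 95.3 CPM in EBM, with a log2 fold change of 0.28 ± 0.22 (standard error; edgeR q = 0.850). Pdia3 (ENSMUSG00000027248, chr2:121413775-121438687, plus strand) was between 323.2 and 407.4 CPM in CBM and between 337.4 and 441.8 CPM in EBM, with a log2 fold change of 0.12 ± 0.14 (standard error; edgeR q = 0.924). For all 3 isomerases the regions overlapped, and none had an edgeR q under 0.05. Without EBM replicate 3 the log2 fold change was 0.28 for Pdia6, 0.036 for Pdia4 and 0.015 for Pdia3.

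Dnajb9 and Xbp1 belong to the IRE1 arm. Dnajb9 encodes ERdj4, a co-chaperone of BiP that brings it to IRE1, and is itself a target of XBP1. Dnajb9 (ENSMUSG00000014905, chr12:44205559-44210326, minus strand) was the least abundant of the 10, at 39.5, 31.8 and 38.5 CPM in CBM replicates 1 to 3 and 29.1, 43.1 and 48.2 CPM in EBM replicates 1 to 3. The EBM libraries lay on both sides of the CBM libraries, and the log2 fold change was 0.13 ± 0.20 (standard error; edgeR q = 0.958). Xbp1 (ENSMUSG00000020484, chr11:5520659-5525893, plus strand) was at 145.1, 91.4 and 138.7 CPM in CBM replicates 1 to 3 and at 118.5, 158.2 and 200.5 CPM in EBM replicates 1 to 3. Its lowest library was CBM replicate 2 and its highest EBM replicate 3, with the other 4 interleaved. The log2 fold change of Xbp1 was 0.35 ± 0.24 (standard error; edgeR unadjusted p = 0.197, q = 0.808), and the exact two-sided permutation test gave p = 0.4. The log2 fold change of Xbp1 was 0.14 without EBM replicate 3 and 0.17 without CBM replicate 2. Counts per gene do not separate the spliced from the unspliced Xbp1 transcript, so the activity of IRE1 was not measured.

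**Figure D3:**
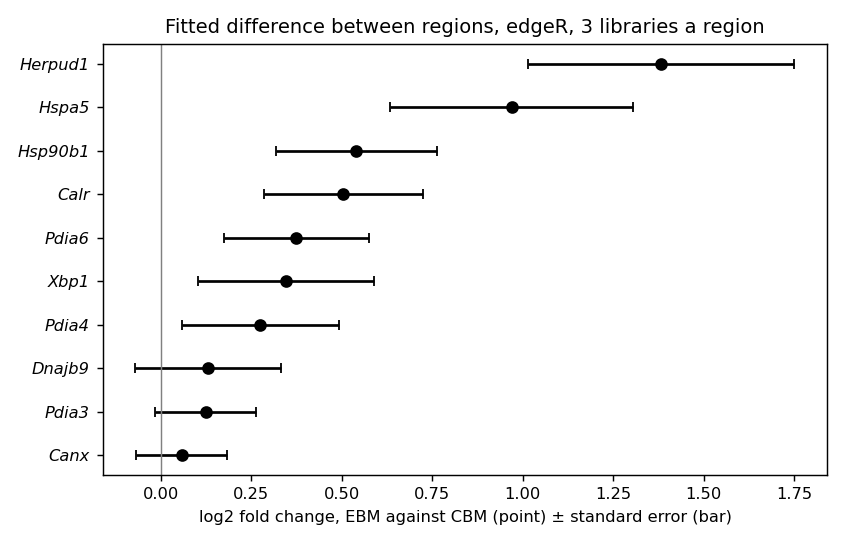
Log2 fold change of EBM against CBM for the 10 genes from edgeR's fit (points), with its standard error (bars), 3 libraries a region. Herpud1 (1.38) and Hspa5 (0.97) have the highest values and the other 8 lie between 0.059 and 0.54, with the bar of Hspa5 overlapping those of Hsp90b1 and Calr.

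The 6 libraries were not alike within a region. Centred on each gene's own mean, log2 CPM averaged over the 10 genes was -0.28, -0.34 and -0.038 for CBM replicates 1 to 3, against -0.19, 0.26 and 0.59 for EBM replicates 1 to 3. EBM replicate 1 therefore lay below CBM replicate 3, and EBM replicates 2 and 3 above every CBM library. With Hspa5 and Herpud1 left out, the mean of the other 8 genes was -0.19, -0.32 and 0.083 for CBM against -0.19, 0.20 and 0.42 for EBM, in the same order of replicates. The order of the EBM libraries was the same for each of the 10 genes, lowest in replicate 1 and highest in replicate 3. In CBM the order differed between genes, with replicate 3 highest for 7 of them, replicate 2 for Hspa5 and replicate 1 for Xbp1 and Dnajb9. Over the 6 libraries, Pearson's r of log2 CPM with Hspa5 was 0.977 for Herpud1, 0.918 for Calr and 0.831 for Hsp90b1, and between 0.525 and 0.730 for the other 6, as a description of libraries that share depth and handling. The r of the 10 genes with the first principal component lay between -0.542 (Pdia3) and -0.008 (Xbp1), and its part in the differences was not tested.

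**Figure D4:**
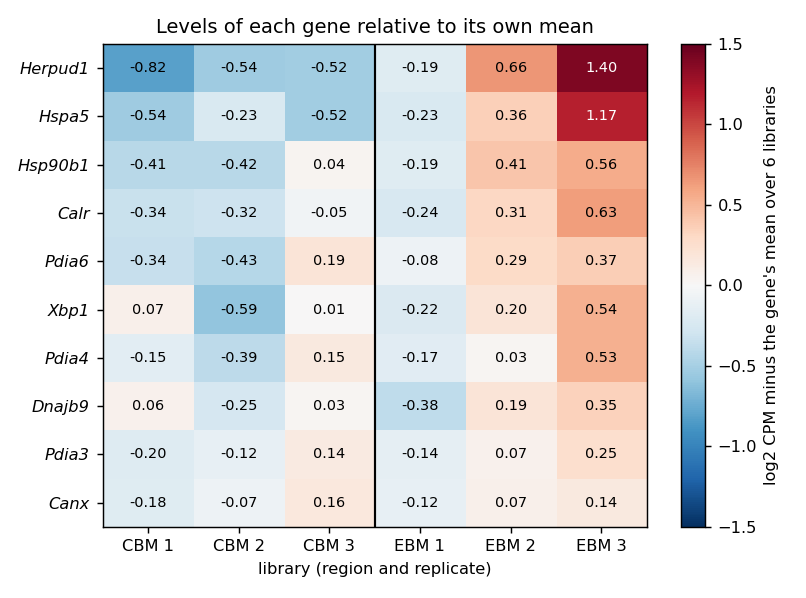
Log2 CPM of each of the 10 genes (rows, ordered by log2 fold change) minus the gene's own mean, in the 6 libraries (columns), with the values printed and a line between the regions. Herpud1 reaches 1.40 and Hspa5 1.17 in EBM replicate 3, and EBM replicate 1 is below the mean for all 10 genes.

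Ratios within a library do not depend on the scaling between libraries. Canx was taken as the divisor after its values had been seen, because it varied least. The counts of Hspa5 per count of Canx were 3.70, 4.25 and 2.95 for CBM replicates 1 to 3, against 4.39, 5.78 and 9.66 for EBM replicates 1 to 3. The counts of Herpud1 per count of Canx were 0.365, 0.412 and 0.355 for CBM against 0.543, 0.857 and 1.36 for EBM, in the same order. Both ratios were higher in every EBM library than in every CBM library. Hspa5 per count of Hsp90b1, its partner in the ER lumen, was 6.26, 7.77 and 4.6 for CBM against 6.61, 6.56 and 10.4 for EBM, and these overlapped.

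By promoter, the 5 genes with an ERSE ran over the whole span of differences but for Herpud1, from Hspa5 (log2 fold change 0.97) and Hsp90b1 (0.54) through Calr (0.50) and Pdia6 (0.38) to Canx (0.059). The ERSE-II gene Herpud1 had 1.38, and the 4 genes with no match lay between 0.12 (Pdia3) and 0.35 (Xbp1). Outside the 10 genes, 11 tested genes had an ERSE in a window, 6 being higher in EBM and 5 lower (median log2 fold change 0.059). With edgeR p under 0.05 there was 1 higher (9.09%, against 4.01% of all genes tested) and 0 lower. A further 7 tested genes outside the 10 had an ERSE-II, with a median of 0.067 and 0 with edgeR p under 0.05, against 7.91% of all genes.

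The rest of the ER machinery, with the genes of UPR signalling, was described by 7 further lists, with 117 genes tested. Of these 87 were higher and 30 lower in EBM, and the median log2 fold change was 0.10, below the 0.36 of the 10 genes. With edgeR p under 0.05 there were 11 higher, or 9.40%, against 4.01% of all genes tested, and 1 lower. Those numbers were 7 and 2 with libraries scaled by their totals alone, and 17 and 1 with a replicate block. None had an edgeR q under 0.05, and DESeq2 called 3 without the filter on low counts (Traf2, Trib3 and Sesn2), and Nfya as well with it. Sesn2 was also the gene of the lists with the smallest p. Of the 11 higher genes, 4 were UPR sensors and transducers and 3 were in the PERK, ATF4 and CHOP branch. Each of the other lists held 0 or 1. Traf2, Nfya, Trib3 and Sesn2 all belong to those signalling lists.

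**Figure D5:**
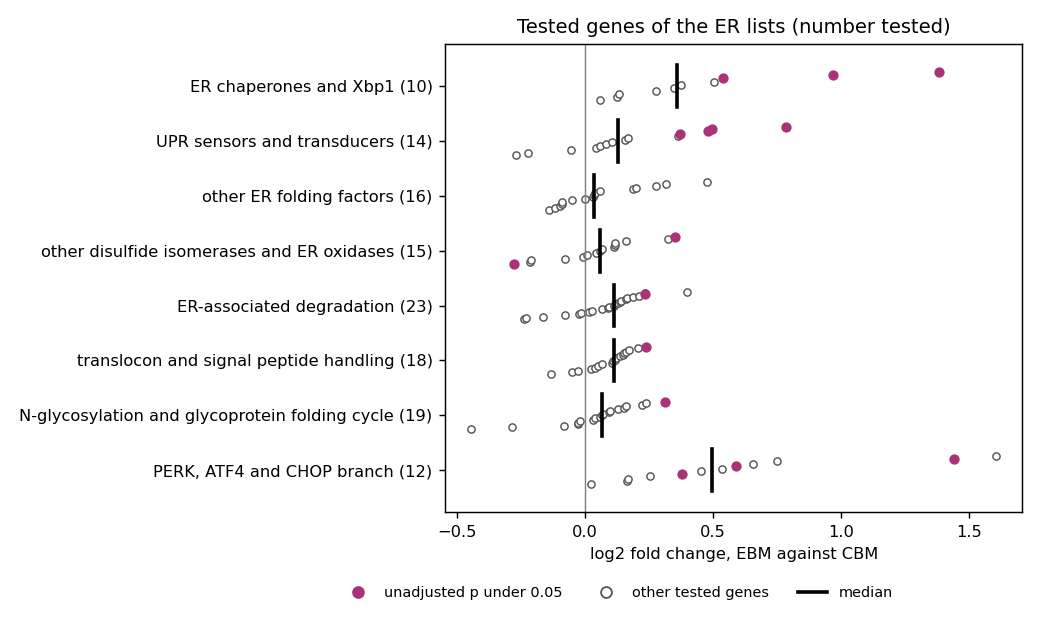
Log2 fold change of EBM against CBM for each tested gene of the 10 described here (top row) and of 7 other ER lists, with the number tested in brackets, the median as a black bar and genes with edgeR p under 0.05 filled. The medians run from 0.035 for other folding factors to 0.49 for the PERK, ATF4 and CHOP branch.

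Among UPR sensors and transducers, 14 genes were tested and 11 were higher in EBM, and the median log2 fold change was 0.13. An edgeR p under 0.05 was reached by 4 of the 14, all higher in EBM, against 4.01% of all genes tested. They were Traf2, an adaptor of IRE1, Nfya, Creld2 and Manf. Nfya is a subunit of the factor that binds the CCAAT part of the ERSE, and Manf is a secreted ER stress protein. Traf2 was 46.0 ± 3.39 CPM (CBM) and 64.9 ± 4.0 CPM (EBM; mean ± SD, n = 3 each), with every EBM library higher (edgeR q = 0.237). Nfya was 175.0 ± 3.19 CPM (CBM) and 226.3 ± 16.5 CPM (EBM; mean ± SD, n = 3 each), also without overlap (edgeR q = 0.334). Creld2 had a log2 fold change of 0.48 and Manf of 0.79, with edgeR q of 0.596 and 0.624. Manf was highest in EBM replicate 3, at 228.3 CPM, as were 9 of the 10 genes. The sensors themselves gave smaller values, with log2 fold changes of 0.10 for Ern1 (IRE1), 0.084 for Atf6 and -0.27 for Eif2ak3 (PERK), of which Eif2ak3 had every EBM library below every CBM library (edgeR unadjusted p = 0.0757, q = 0.678).

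Among other ER folding factors, 16 genes were tested with 9 higher and 7 lower in EBM, and 0 with edgeR p under 0.05. The smallest p belonged to Fkbp2, a prolyl isomerase (log2 fold change 0.32), Hyou1, the ER chaperone GRP170 (0.48), and Sdf2 (0.20). Hyou1 ran from 116.7 to 208.8 CPM in CBM and from 178.5 to 269.5 CPM in EBM, so the regions overlapped. Among other disulfide isomerases and ER oxidases, 15 were tested and the list was split, with Txndc11 higher in EBM (log2 fold change 0.35, edgeR unadjusted p = 0.0136) and Tmx3, a membrane-bound isomerase, lower (-0.28, edgeR unadjusted p = 0.0151), both with q over 0.05. Ero1l, the oxidase that recharges the isomerases, had a log2 fold change of 0.32 (edgeR q = 0.639).

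For ER-associated degradation, which Herpud1 serves, 23 genes were tested, with 17 higher and 6 lower in EBM and their median at 0.11. Derl2, a part of the channel for misfolded proteins, had a log2 fold change of 0.23 and every EBM library above every CBM library (edgeR unadjusted p = 0.0393, q = 0.596). It was followed by Ube2g2, a ubiquitin-conjugating enzyme (0.40, edgeR q = 0.669), and Ufd1, which helps to pull proteins from the membrane (0.21, edgeR q = 0.678). The highest log2 fold change in this list, 0.40 for Ube2g2, compares with 1.38 for Herpud1. The translocon list, of 18 tested genes, had 15 higher in EBM with a median of 0.11, led by Srpr, the receptor of the signal recognition particle (0.24, edgeR q = 0.546), with Sec61g (0.21) and Sec11c (0.15) next. In the list for N-glycosylation 13 of 19 tested genes were higher, led by Dad1, a subunit of the oligosaccharyltransferase (0.31, edgeR q = 0.455), with Man1b1 (0.22) and Stt3a (0.24) next.

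In the PERK, ATF4 and CHOP branch, 12 genes were tested and all 12 were higher in EBM, against 50.4% of all genes tested. The median log2 fold change was 0.49. Trib3, a pseudokinase induced by ATF4 and CHOP, ran from 5.0 to 12.2 CPM in CBM and from 13.2 to 29.9 CPM in EBM (log2 fold change 1.44, edgeR q = 0.420). Sesn2, a stress-induced inhibitor of mTORC1, was 15.5 ± 1.18 CPM (CBM) and 23.3 ± 0.438 CPM (EBM; mean ± SD, n = 3 each; edgeR q = 0.226). Atf4 itself had a log2 fold change of 0.38 (edgeR q = 0.456). These 3 genes, named for the smallest p of the list, had every EBM library above every CBM library. They were the only ones of the 12 to do so, against 7.47% of all genes tested. Ddit3, which encodes CHOP, had a log2 fold change of 0.66 and overlapping regions (edgeR unadjusted p = 0.0565).

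Outside every list used here, the tested genes whose log2 CPM was most like the mean of the 10 genes over the 6 libraries were Rpl19-ps11 (r = 0.993), Tmem251 (0.992), 4930540M05Rik (0.987), Nfx1 (0.984) and Scfd2 (0.982). They were picked as the highest r among the genes tested, over only 6 libraries, so a high r by itself shows no shared control. All 5 overlapped between the regions. The largest difference among these 5 belonged to 4930540M05Rik, at no more than 1.22 CPM. Nfx1 differed by a log2 fold change of only 0.078.

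Markers of other cells were read beside these values. Plasma cells are rich in ER chaperones. The plasma and B cell list without Xbp1 summed to between 13.3 and 21.5 CPM in CBM and between 12.0 and 19.1 CPM in EBM. Of that list, Cd79b ran from 6.89 to 13.75 CPM in CBM and from 6.29 to 11.3 CPM in EBM. Tnfrsf17 and the B cell gene Ms4a1 had no count in any library, and Mzb1 was at most 0.0568 CPM. Jchain, which encodes the joining chain of secreted antibodies, was at 0.114, 10.4 and 0.397 CPM in CBM replicates 1 to 3 and at 4.58, 7.06 and 2.25 CPM in EBM replicates 1 to 3, so it was uneven within both regions. The osteoblast and stroma list summed to at most 2.22 CPM in any library, with Bglap2, Sp7 and Alpl at 0. Of the endothelial list only Egfl7 (78.0 to 98.0 CPM over the 6 libraries) and Eng (36.3 to 65.6 CPM) exceeded 2 CPM. Of the macrophage and osteoclast list only Acp5 and Cd68 exceeded 2 CPM, with Cd68 at most 6.2 CPM. Acp5 was at 269.1, 539.3 and 364.8 CPM in CBM replicates 1 to 3 and at 257.4, 295.5 and 564.6 CPM in EBM replicates 1 to 3. The T and NK cell list summed to at most 2.5 CPM. The neutrophil granule list ranged from 3.37 to 234.6 CPM in CBM and from 35.5 to 165.7 CPM in EBM. The part of plasma cell, erythroid, neutrophil, endothelial, macrophage and osteoclast transcripts in the differences was not tested.

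Genes known to respond to handling were read in the same way. The heat shock list summed to between 5686 and 6821 CPM in CBM and between 7127 and 8206 CPM in EBM. In this list, 11 of 11 tested genes had a higher fitted level in EBM, against 50.4% of all genes tested (median log2 fold change 0.31). Only 2 of the 11, Hspa1a and Hspa1b, had an edgeR p under 0.05, against 4.01% of all genes higher. The same 2 alone had every EBM library above every CBM library, against 7.47% of all genes. Hspa1b, an inducible HSP70 of the cytosol, ran from 3.37 to 9.49 CPM in CBM and from 50.3 to 112.1 CPM in EBM (log2 fold change 3.74, edgeR q = 0.121). Among the EBM libraries Hspa1b, Hspa1a, Hsp90ab1, Hspe1 and Bag3 were highest in replicate 1. The other tested genes of the list, Hsph1, Dnajb1, Hsp90aa1, Hspa8, Hspd1 and Hsf1, were highest in replicate 3, as Hspa5 and Herpud1 were. Of those highest in replicate 3, Hsph1 was at 56.1, 71.0 and 147.8 CPM and Hspa8 at 2030, 2238 and 2785 CPM in EBM replicates 1 to 3. Reads of Hspa1b can be shared with its near-identical copy Hspa1a. In the immediate early list, 12 of 18 tested genes were higher, against 50.4% of all genes tested. With edgeR p under 0.05 there were 4 higher and 1 lower, against 4.01% and 3.9% of all genes. The lower gene was Dusp1 (log2 fold change -1.13, edgeR q = 0.361), and the higher ones included Nr4a1 (2.89, edgeR q = 0.435). The part of the digestion in the ER genes was not tested, since it coincides with the region in every library.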

How the data were processed

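AE9a leukemia cells from CBM and EBM were profiled by RNA-seq, with 3 libraries each, made from rRNA-depleted RNA with a directional kit and sequenced as paired-end reads. The authors deposited raw counts per gene, without normalization. The submitters' processing notes name HISAT2 2.0.5 and mm10. The counting tool and its strand setting are not given in the sources used here, so overlapping genes are uncertain. Symbols that had become dates (27) were restored from gene identifiers. Coordinates of the 10 genes were the same in GENCODE M21 (GRCm38), and sequences came from the RefSeq table of GRCm38.p6.

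Counts were filtered by filterByExpr, normalized by TMM (factors 0.948 to 1.037) and tested by edgeR 4.0.16 (quasi-likelihood F-test without a block, Benjamini-Hochberg adjustment over 13352 genes, threshold 0.05). The standard error is the absolute log2 fold change divided by the square root of F. Single values used log2 CPM with a prior count of 2 and all 20 relabellings of the libraries. CPM per kilobase used the deposited gene length. The 10 genes and the lists were chosen with earlier results of these data known. All 10 genes were named, with the 3 genes of smallest p in each of 7 ER lists and the 5 genes most like the mean of the 10. Manf, Ern1, Atf6, Eif2ak3, Ddit3 and the marker, heat shock and immediate early genes were named after their values were seen. Every listed gene was matched in the table.

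In simulated counts for the comparison of EBM with CBM over 13352 genes, edgeR called 43.3% of the genes given a log2 change of 1, 91.0% at a log2 change of 2 and 98.5% at 3. It also called 6 unchanged genes. Every simulated gene took the trended dispersion for its level, without spread between genes. These shares can therefore be too high for the real counts, where Hspa1b was not called at a log2 fold change of 3.74 (edgeR q = 0.121). Alternatives were DESeq2 1.42.0 with and without the filter on low counts, limma-voom (limma 3.58.1), other size factors, other filters, a robust prior, thinning to the smallest library, a replicate block, alone or together with gene length by loess (span 0.3), a prior count of 0.5 and each library left out in turn.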

Additional observations from a re-analysis of the deposited data

How the results depend on the processing

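Over 19 alternatives, each of the 10 genes other than Canx and Dnajb9 stayed higher in EBM, with log2 fold changes of 0.51 to 1.24 for Hspa5 and 0.91 to 1.69 for Herpud1. Canx turned to -0.015 with libraries scaled by their totals alone, -0.013 without CBM replicate 1 and -0.0076 without EBM replicate 3, and Dnajb9 to -0.030 without EBM replicate 3, all within their standard errors; with each library left out in turn, Canx reached at most 0.16 and Dnajb9 0.32. With each library left out in turn, the median of the 10 genes was between 0.21 and 0.51, and the number of them at an unadjusted p under 0.05 between 1 (without CBM replicate 1) and 4 (without EBM replicate 1), where all libraries gave 3. Where edgeR called 0 of 13352 genes, the number became 40 without a filter on low counts, 175 with DESeq2 without that filter and 201 with DESeq2 on the filtered genes (an alternative chosen after seeing the data), and was 0 with limma-voom (1080 at an unadjusted p under 0.05, against 1056 with edgeR). Of those 1056, 535 were higher and 521 lower in EBM; upper-quartile factors gave 428 and 676, and library totals alone 340 and 884. With DESeq2, 1 of the 10 genes passed in either case, and 3 and 4 genes of the other ER lists. The cause of these differences between tools was not tested.

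Both regions number their replicates 1 to 3, but deviations from the group means correlated with r of 0.676, -0.204 and 0.203 between libraries numbered 1, 2 and 3, and EBM replicate 2 was most like CBM replicate 1, so the numbers were not taken to pair the libraries. Whether libraries of the same number share mice is not given in the sources used here. With a replicate block, 0 genes passed an adjusted p of 0.05 (1203 at an unadjusted p under 0.05), the median of the 10 genes was 0.37, and 5 of them had an unadjusted p under 0.05, Calr and Pdia6 joining the 3 above. The block with a correction for gene length gave a median of 0.38. No library repeated another of its region (chi-square per degree of freedom 13.1 or more). Differences below 1 on the log2 scale were not simulated.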
